A study of Mus musculus with 4 samples.

Results

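Keratins are the proteins of the intermediate filaments of epithelial cells, and their genes were followed here through retinoic acid (RA) differentiation of mouse embryonic stem (ES) cells. The keratin probes were those whose deposited gene symbol is Krt followed by a digit, which includes the older Krt1- and Krt2- names and leaves out the keratin-associated proteins. This gave 41 of the 25697 probes, which stood for 36 of 17876 genes. The cells were E14, a mouse ES cell line, stably infected with virus that expressed a Scramble shRNA (control) or an AKAP95 shRNA, where AKAP95 is the protein of the gene Akap8. Undifferentiated cells grew on gelatin in medium with LIF, a cytokine that maintains pluripotency. Differentiated cells had 4 days without LIF followed by 4 days in 1 µM all-trans RA as a monolayer. The design gave 4 groups of 1 Illumina bead array each, so no pairwise difference has a replicate error to be compared with. The RA effect combines the acid, LIF withdrawal and days in culture, and their shares cannot be told apart. The study is about the AKAP95 protein in transcription with MLL complexes, and the comparisons ask how the RA response and the AKAP95 knockdown bear on gene expression.

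Keratins fall into an acidic type I and a basic type II, and a filament needs one partner of each. Krt8 (type II) and Krt18 (type I) are the pair of simple epithelia and the first keratins made by the embryo, in the trophectoderm and later in the endoderm, while pairs such as Krt5 with Krt14 and Krt1 with Krt10 mark the basal and the upper layers of the epidermis. Most type I genes of the mouse form a cluster on chromosome 11 and most type II genes one on chromosome 15, where Krt18 is the type I exception and lies next to Krt8. In the annotation, 18 of the 36 keratin genes lay on chromosome 11 and 17 on chromosome 15, and the probe named Krt2-18 had no match.

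The regions just before the start of 4 of these genes are shown, 3 of genes that were higher after RA (Krt8, Krt18 and Krt7) and 1 of the keratin with the largest decrease (Krt42), so that the letters can be read beside the values that follow. The sequences are from RefSeq on GRCm38.p6, the 250 bases before the annotated start, 5′ to 3′ on the strand of the gene. Krt8 is at chr15:102004343-102004592 on the minus strand, Krt18 at chr15:102027966-102028215 on the plus strand, Krt7 at chr15:101412153-101412402 on the plus strand and Krt42 at chr11:100269952-100270201 on the minus strand. Capitals mark matches, on either strand, to any of 6 motifs, chosen with the values known: the GC box (GGGCGG), the half-site of retinoic acid receptors (AGGTCA), AP-1 (TGANTCA), AP-2 (GCCNNNGGC), the TATA box (TATAAA) and the CCAAT box (CCAAT).
Krt8: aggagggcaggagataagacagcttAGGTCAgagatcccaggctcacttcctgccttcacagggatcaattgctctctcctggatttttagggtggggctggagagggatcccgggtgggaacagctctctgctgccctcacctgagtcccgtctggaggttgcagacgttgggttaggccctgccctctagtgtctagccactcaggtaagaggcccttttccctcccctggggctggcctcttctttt
Krt18: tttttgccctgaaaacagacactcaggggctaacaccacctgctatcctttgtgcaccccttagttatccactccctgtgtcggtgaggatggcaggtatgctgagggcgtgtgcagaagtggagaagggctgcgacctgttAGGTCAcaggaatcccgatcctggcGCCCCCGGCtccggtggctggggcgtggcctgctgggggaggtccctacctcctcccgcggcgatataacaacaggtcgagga
Krt7: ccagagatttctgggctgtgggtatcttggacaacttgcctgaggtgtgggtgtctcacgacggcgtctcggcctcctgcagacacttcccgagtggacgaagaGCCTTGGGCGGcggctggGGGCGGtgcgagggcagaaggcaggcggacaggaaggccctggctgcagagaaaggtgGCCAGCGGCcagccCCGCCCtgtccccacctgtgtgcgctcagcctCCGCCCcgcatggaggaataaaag
Krt42: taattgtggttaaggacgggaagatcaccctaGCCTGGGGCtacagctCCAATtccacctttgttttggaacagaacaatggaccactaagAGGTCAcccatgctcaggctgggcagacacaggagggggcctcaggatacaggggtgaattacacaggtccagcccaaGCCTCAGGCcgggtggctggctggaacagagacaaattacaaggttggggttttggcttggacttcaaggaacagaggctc
The receptor half-site was found once in each of Krt8, Krt18 and Krt42, that is in 2 genes that were higher and 1 that was lower after RA, and not in Krt7. Among all 32851 promoter windows of the same length, 14.0% held it. Krt7 held 4 GC boxes, a motif in 32.7% of all windows, and 2 AP-2 matches, 1 of which overlaps a GC box. Krt42 also held 2 AP-2 matches and Krt18 held 1, against 13.7% of all windows with at least 1. Krt42 alone of the 4 held the letters CCAAT (33.8% of all windows). The TATA letters (12.4%) and the AP-1 letters (6.7%) were in none of the 4 windows as spelled. Of the 11 keratin genes detected, 8 had an entry in the promoter table. Among those not shown, Krt20, which was higher after RA, held a receptor half-site and a TATA box. Krt10 held a TATA box and a CCAAT box, and Krt14 and Krt23 held none of the 6 motifs. A match is a description of letters and not of a bound site.

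Detection was set at a detection p below 0.01, the p being the share of negative controls brighter than the probe. Of the 36 keratin genes, 11 passed on 1 array or more and 6 on all 4, against 9875 of all 17876 genes (55.2%) on 1 or more. Before RA there were 9 detected in each population, and after RA 8 in scramble and 10 in knockdown cells. Of the 19 type I genes 9 were detected, and of the 16 type II genes only Krt8 and Krt7. The other 25 genes, read from 30 probes with signals between 44.7 and 84.4, were Krt1, Krt2, Krt4, Krt5, Krt6a, Krt6b, Krt9, Krt13, Krt16, Krt27, Krt31, Krt32, Krt34, Krt35, Krt36, Krt40, Krt71, Krt73, Krt78, Krt80, Krt82, Krt84, Krt86 (listed as Krt2-10), Krt87 (listed as Krt83) and the unmatched Krt2-18. They include the epidermal partners Krt5 of Krt14 and Krt1 of Krt10, and Krt6a and Krt6b, which accompany Krt17. Not detected means not above the negative controls and not absent. Each of the 11 detected genes was read from 1 probe. Type I keratins resemble each other in sequence, and since probe sequences were not used here, binding of a probe to RNA of a paralog was not tested.

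The state of the cells was checked first. All 12 genes of a pluripotency list were detected on both undifferentiated arrays and fell with RA (limma, an additive model over all 4 arrays with adjusted p under 0.05), with a median RA effect of -4.79 on the log2 scale. The signal of Akap8 was 272 in scramble and 139 in knockdown cells before RA, and 297 and 199.7 after RA, which is 2.27-fold and 1.70-fold lower in knockdown cells on the normalised scale. The number of probes detected per array was between 11344 and 12156. The arrays carry 1 chip number in the headers. The samples are bulk RNA, in which more cells of a type and more RNA per cell cannot be told apart.

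**Figure D1:**
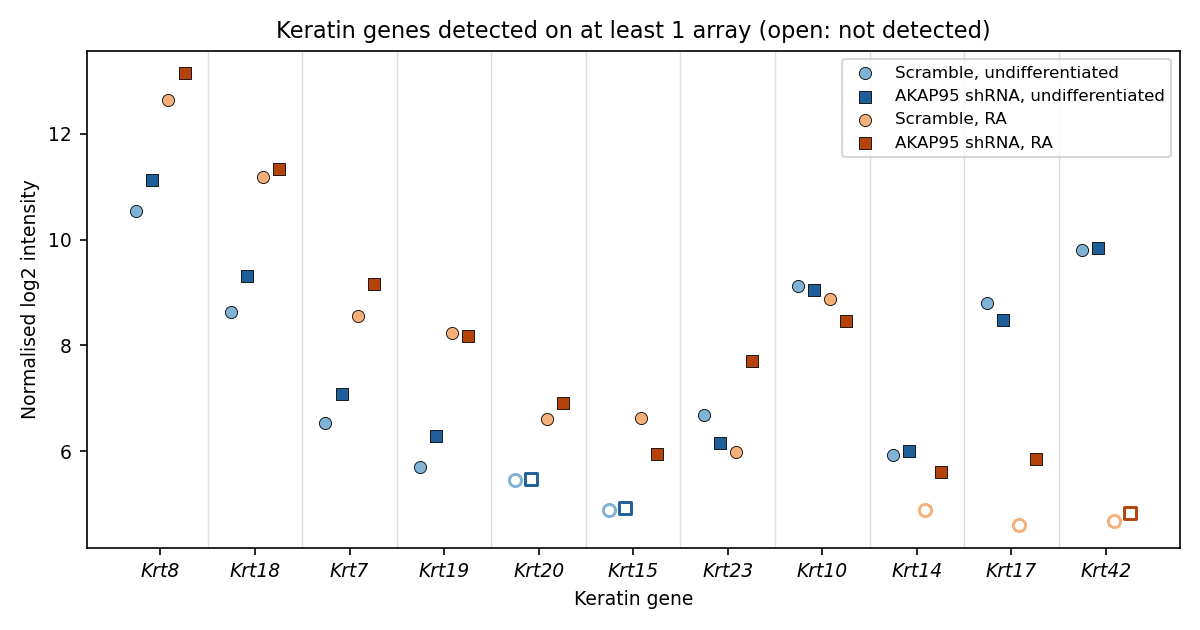
Normalised log2 intensity (y axis) of the 11 keratin genes detected on at least 1 array (x axis), with 1 point per array and colours and shapes for the 4 groups; open points were not detected (detection p of 0.01 or more). Krt8, Krt18, Krt7, Krt19, Krt20 and Krt15 were higher on both RA arrays than on both undifferentiated arrays, and Krt17 and Krt42 lower; heights of different genes come from different probes and are not comparable.

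Of the keratins known from simple epithelia, Krt8, Krt18, Krt7 and Krt19 were higher after RA in both cell populations. The signal of Krt8 was 1493 in scramble and 2205 in knockdown cells before RA, and 6325 and 8319 after RA. That of its partner Krt18 was 402 and 605 before RA and 2410 and 2574 after RA, in the same order. Both RA-treated arrays were thus above both undifferentiated arrays for both partners. On the normalised log2 scale the RA effect was 2.09 (4.25-fold) for Krt8 in scramble cells and 2.02 (4.05-fold) in knockdown cells, and 2.55 (5.88-fold) and 2.01 (4.04-fold) for Krt18. In limma the RA effect over both populations was 2.05 for Krt8 (standard error 0.16, adjusted p = 0.00976) and 2.28 for Krt18 (standard error 0.21, adjusted p = 0.011).

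Krt7, the type II keratin of glands, ducts and trophoblast, had a signal of 125 and 157 in undifferentiated scramble and knockdown cells, and of 462 and 680 after RA. Krt19, a type I keratin of ducts and simple epithelia that lacks most of the tail domain, had 91.4 and 111 before RA and 387 and 373 after RA. For each of them the RA-treated arrays lay above the undifferentiated ones, with the knockdown array the higher of the RA-treated pair for Krt7 and the lower by a small margin for Krt19. The RA effect of Krt7 was 2.02 in scramble and 2.07 in knockdown cells, and that of Krt19 was 2.53 and 1.88. Krt19 was dim before RA, and without background correction its RA effects were 1.82 and 1.43. Both rose in limma, Krt7 by 2.05 (standard error 0.16, adjusted p = 0.00976) and Krt19 by 2.20 (standard error 0.23, adjusted p = 0.0124).

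Krt20, known from gut epithelium and urothelium, and Krt15, known from basal keratinocytes, were detected on the RA-treated arrays alone. The signal of Krt20 was 84.6 and 83.7 in undifferentiated scramble and knockdown cells, both not detected, and 156 and 189 after RA. That of Krt15 was 71.6 and 72.0, both not detected, and 158 and 118 after RA. Where a gene was not detected on one side, that side was set no lower than the dimmest detected probe of its array, and the difference is written as "at least", a bound on the background-corrected scale with an offset of 16 only. Krt20 was at least 2.12-fold higher after RA in scramble and at least 2.65-fold in knockdown cells, and Krt15 at least 2.16-fold and at least 1.35-fold. In limma, which uses values without bounds, Krt20 rose by 1.29 (adjusted p = 0.0177) and Krt15 by 1.37 (adjusted p = 0.026). Both genes passed the detection filter only through the RA-treated arrays, where they are high, so these p-values add no separate support. Without the filter the adjusted p in limma was 0.0293 for Krt20 and 0.0514 for Krt15. Both are dim, and in scramble cells their differences were below 2-fold without background correction, at 0.64 for Krt20 and 0.65 for Krt15 on the log2 scale, and with the deposited median-normalised ratios (0.73 and 0.74). In knockdown cells Krt20 was at 0.86 without background correction.

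The keratins that were lower after RA were both type I genes of the chromosome 11 cluster and next to each other in the annotation. The signal of Krt42 was 867 in scramble and 861 in knockdown cells before RA, and 70.9 and 74.5 after RA, where it was not detected. On the background-corrected scale it was at least 21.6-fold lower after RA in scramble and at least 23.9-fold lower in knockdown cells (log2 differences of -4.43 and -4.58), sizes that depend on the correction and its offset, since they were -3.43 and -3.52 without the correction and -3.62 and -3.72 with an offset of 50. In limma it fell by 5.06 (standard error 0.16, adjusted p = 0.00886, and 0.0228 without the detection filter). Krt42 passed that filter only through the undifferentiated arrays, where it is high, so the p-value adds no separate support. Krt17, a keratin of skin appendages that is induced in wounded epidermis, had a signal of 452 and 355 before RA and of 67.6 and 113 after RA, and was not detected in RA-treated scramble cells. On the background-corrected scale it was at least 10.9-fold lower in scramble and 6.18-fold lower in knockdown cells (-3.45 and -2.63), against -2.51 and -1.96 without the correction, and it fell by 3.42 in limma (standard error 0.43, adjusted p = 0.0154). Krt16, on the other side of Krt17, had a signal of 83.5 and 83.4 before RA and of 58.2 and 61.0 after RA. It missed the detection threshold on all 4 arrays and was not tested. With detection at p under 0.05 it fell by 1.01 in limma (adjusted p = 0.0205).

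Krt10, Krt14 and Krt23 did not pass the limma test for RA. The signal of Krt10, a keratin of the upper epidermis that many other cells also transcribe, was 553 and 504 before RA and 562 and 442 after RA, with RA effects of -0.23 in scramble and -0.59 in knockdown cells (limma -0.41, adjusted p = 0.158). Krt14 had 98.9 and 98.6 before RA and 77.5 (not detected) and 102 after RA, and limma gave -0.71 (adjusted p = 0.0877). Krt23, a type I keratin of epithelial cells, is the one whose RA effects went opposite ways. Its signal was 134 and 104 in undifferentiated scramble and knockdown cells, and 116 and 289 after RA. The RA-treated knockdown array was thus the highest, and the other 3 arrays lay between 104 and 134. The RA effect was -0.72 in scramble and 1.56 (2.94-fold) in knockdown cells, and limma gave 0.42 (standard error 0.60, adjusted p = 0.608). Without background correction the RA effects of Krt23 were -0.45 and 1.12. The difference between both RA effects has no test in a design of 1 array per group.

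**Figure D2:**
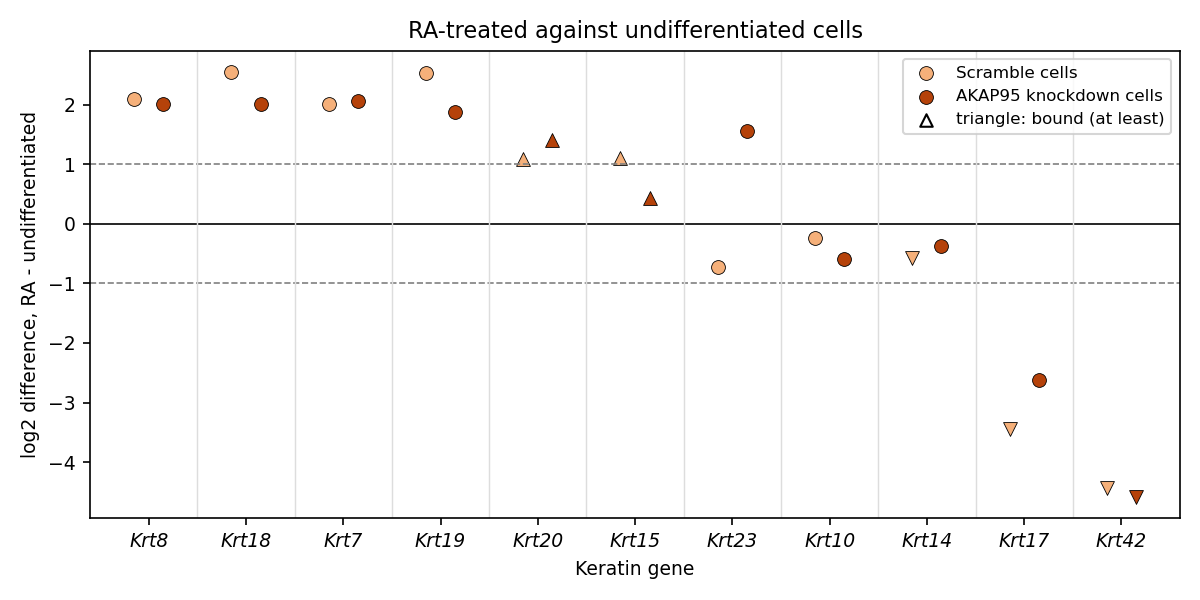
Log2 difference between RA-treated and undifferentiated cells (y axis) for each detected keratin gene (x axis) in scramble and in AKAP95 knockdown cells; triangles are bounds and dashed lines mark 2-fold. The points of the 2 populations lie close together for Krt8 and Krt7 and on opposite sides of 0 for Krt23. Those of Krt42 are both bounds set by the dimmest detected probe of each RA-treated array, so their closeness does not compare the 2 responses.

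Counted over the 11 detected keratins, RA left 6 at least 2-fold higher and 2 at least 2-fold lower in scramble cells, where 26.0% of 9509 genes compared were past 2-fold in either direction (14.2% higher and 11.8% lower). In knockdown cells 6 were also higher and 2 lower, where 22.2% of 9530 genes were past 2-fold (12.4% higher and 9.81% lower). With the deposited median-normalised ratios 70.9% of the genes past 2-fold in knockdown cells were higher, against 55.8%, and the median of all genes moved from -0.02 to 0.11. The 6 genes were not the same in both, since Krt15 was past 2-fold in scramble and Krt23 in knockdown cells. In limma 6 of the 11 rose and 2 fell, against 18.9% of 9875 genes that rose and 16.3% that fell (35.2% in all). The median RA effect was 1.29 over the 11 keratins and 0.01 over all genes. A keratin could enter these counts only if detected in at least 1 group, so they are a description of the detected members.

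In undifferentiated cells the AKAP95 knockdown left every keratin within 2-fold. Of 9 compared, 0 were past 2-fold, against 0.195% of 8734 genes (0.0687% higher and 0.126% lower). Krt18 (0.69), Krt8 (0.58), Krt19 (0.58) and Krt7 (0.55) had higher values in the knockdown array on the log2 scale, or 1.47-fold to 1.62-fold. At a log2 difference of 0.5, a size chosen after the values were seen, these 4 were higher and Krt23 lower. Of all genes 4.98% were past it and 2.11% higher. Without background correction Krt18 (0.64) and Krt8 (0.57) stayed past it, and Krt7 (0.39), Krt19 (0.34) and Krt23 (-0.35) did not. Krt42 differed by 0.04, Krt14 by 0.06, Krt10 by -0.07, Krt17 by -0.33 and Krt23 by -0.55. Since each value is 1 array against 1 array, the differences have no replicate check.

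After RA, Krt23 was the keratin past 2-fold between knockdown and scramble cells, 3.31-fold higher, of 10 compared (6.42% of 9397 genes past 2-fold, 3.17% higher and 3.25% lower). At a log2 difference of 0.5, Krt8, Krt7 and Krt23 were higher and Krt15 lower. Of all genes 23.1% were past it and 11.7% higher. Without background correction Krt15 was at -0.42. Krt7 and Krt8 again had higher values in the knockdown array, by 0.60 and 0.51, while Krt18 (0.15) and Krt19 (-0.07) were closer to 0 than before RA. Krt17 was at least 1.41-fold higher in the knockdown array, with the scramble array not detected, and 1.25 on the log2 scale without the bound. Krt20 differed by 0.32, Krt10 by -0.43 and Krt15 by -0.68. Krt42 was not detected in either. In limma, the knockdown effect over both states passed the adjusted test for 0 of the 11 keratins and for 0% of all 9875 genes. Every adjusted p of this limma term was 0.818 or more, and Akap8 itself (-0.98, standard error 0.19) did not pass either. At an unadjusted p under 0.05 limma had 412 genes (4.17%), among them Krt7 (0.58, standard error 0.16, unadjusted p = 0.0257) and Krt8 (0.55, standard error 0.16, unadjusted p = 0.0306), while Krt18 was at 0.42 (unadjusted p = 0.121) and Krt19 at 0.26 (unadjusted p = 0.334).

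**Figure D3:**
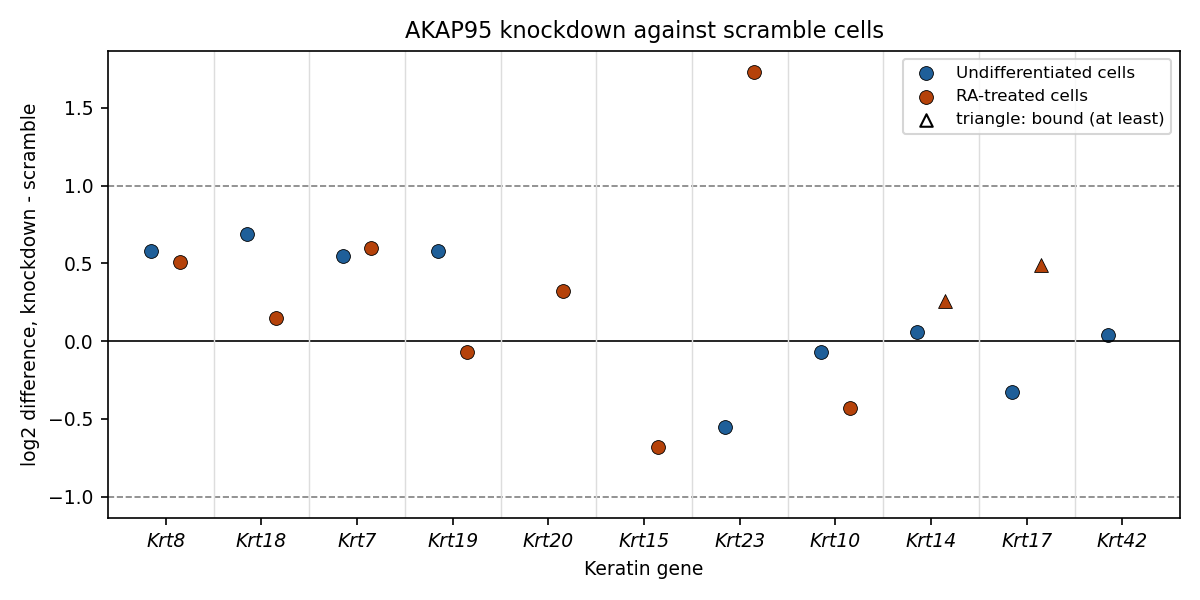
Log2 difference between AKAP95 knockdown and scramble cells (y axis) for each detected keratin gene (x axis), undifferentiated and after RA; triangles are bounds, dashed lines mark 2-fold, and a missing point means that neither array detected the gene. Krt8 and Krt7 were between 0.51 and 0.60 in both states, and Krt23 was at -0.55 in undifferentiated and 1.73 in RA-treated cells.

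Markers of other cell types also differed between the RA-treated populations, some lists higher and some lower in knockdown cells, where 3.17% of all genes were at least 2-fold higher and 3.25% lower. Of 14 trophoblast markers, all on the array, 6 of 9 compared after RA were higher in knockdown than in scramble cells by at least 2-fold and 0 lower, and the summed background-corrected level of the list was 4277 in knockdown and 1181 in scramble cells after RA. In undifferentiated knockdown and scramble cells the sums were 2098 and 1994, and the brightest member was Tfap2c, with signals of 1666 and 1724. The trophoblast genes Hand1, Tpbpa and Prl3d1 were detected on no array. The summed level of the extraembryonic endoderm list was lower in knockdown cells after RA (1841 against 3667), with 2 of 10 past 2-fold lower and 0 higher. Its brightest members were Gata6 (712 against 1615) and Dab2 (694.5 against 1245). Foxa2 (0.2 on the log2 scale) and Lamb1 (0.18) had higher values in knockdown cells, and Afp and Ttr were detected on no array. Mesothelium markers were lower in knockdown cells after RA, with 3 of 4 past 2-fold (summed level 1418 against 4047). The same held for neural markers, with 6 of 8 lower (966.5 against 3762). The brightest mesothelium marker was Wt1, with signals of 1363 in knockdown and 3440 in scramble cells after RA. Msln was detected on neither RA-treated array, and the neural genes Sox1, Pax6 and Nefl on no array. The keratinocyte list had 1 of 5 higher (789 against 542), and 6 of its 12 members, among them Dsg3, Dsc3 and Ivl, were detected on no array. Of the pluripotency genes 6 of 10 were higher in knockdown cells after RA and 0 lower (3703 against 1346). The part of these cell types in the keratin values was not tested.

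The genes that work with keratins were read from lists chosen with earlier results of these data known. Of 20 epithelial junction genes tested by limma, 9 rose with RA and 0 fell, where 18.9% of all genes rose and 16.3% fell, with a median of 0.63 against 0.01 over all genes. The tight junction genes Cldn3 (3.30, adjusted p = 0.00947), Cldn6 (2.66) and Cldn4 (1.72, a call lost without the filter on undetected genes) and the epithelial splicing regulator gene Esrp1 (1.91) rose most, while Cdh1, which encodes E-cadherin, had -0.48 (adjusted p = 0.252). The RA effect of Cdh1 was -0.93 in scramble and -0.02 in knockdown cells. The signal of Cldn3 was 100 and 104 in undifferentiated scramble and knockdown cells and 630 and 935 after RA.

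Of the 23 genes on the array that anchor keratin filaments or bind them, 14 were tested, of which 2 rose and 2 fell in limma, shares near those of all genes (18.9% and 16.3%). Dsp, the desmoplakin that ties keratins to desmosomes, rose by 2.19 (adjusted p = 0.00976), from a signal of 120 and 122 to 458 and 554. Ppl, the gene of periplakin, rose by 2.15 (adjusted p = 0.0209), a call lost with the mean of all probes. Sfn, a 14-3-3 protein of epithelial cells, fell by 2.03 (adjusted p = 0.011) and the integrin gene Itga6 by 1.26 (adjusted p = 0.0164). The desmosomal genes Jup, Pkp1, Dsg1a, Dsg3, Dsc1, Dsc2 and Dsc3 were detected on no array, and Pkp2, Pkp3 and Dsg2 on all 4.

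Among 19 tested regulators of keratin or epithelial genes, 4 rose and 4 fell in limma, also near the shares of all genes. Tfap2b (4.65), of the AP-2 family, rose with the AP-1 gene Jun (2.26), with Trp63 (2.0), the regulator of stratified epithelia, and with Zeb2 (2.42), a repressor of epithelial genes. The other AP-2 genes on the list were not called in limma, with -1.25 for Tfap2c (adjusted p = 0.0757) and 0.48 for Tfap2a (adjusted p = 0.162). The signal of Trp63 was 53.9 and 56.3 before RA and 137 and 146 after RA. Klf4 (-3.87), also a pluripotency gene, Klf5 (-2.31), the epithelial factor gene Grhl3 (-1.27) and Sp1 (-1.14), the gene of a widely expressed GC box factor, fell. Of 11 other intermediate filament genes tested, Nes (1.97) rose, and Nefh (-3.32), Prph (-1.52), Lmna (-1.29) and Des (-0.75) fell. Vim, the filament of mesenchymal cells, had 1.62 (adjusted p = 0.0701), with 2.5 in scramble and 0.74 in knockdown cells. Of 6 cornified envelope genes tested, 0 rose, and Tgm1 (-2.58) and Casp14 (-1.59) fell. Both lists are short, and the shares of all genes that rose (18.9%) and fell (16.3%) apply to them too. Without the filter on undetected genes the calls on Zeb2, Nes and Des were lost, and that on Des also with the deposited median-normalised ratios.

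**Figure D4:**
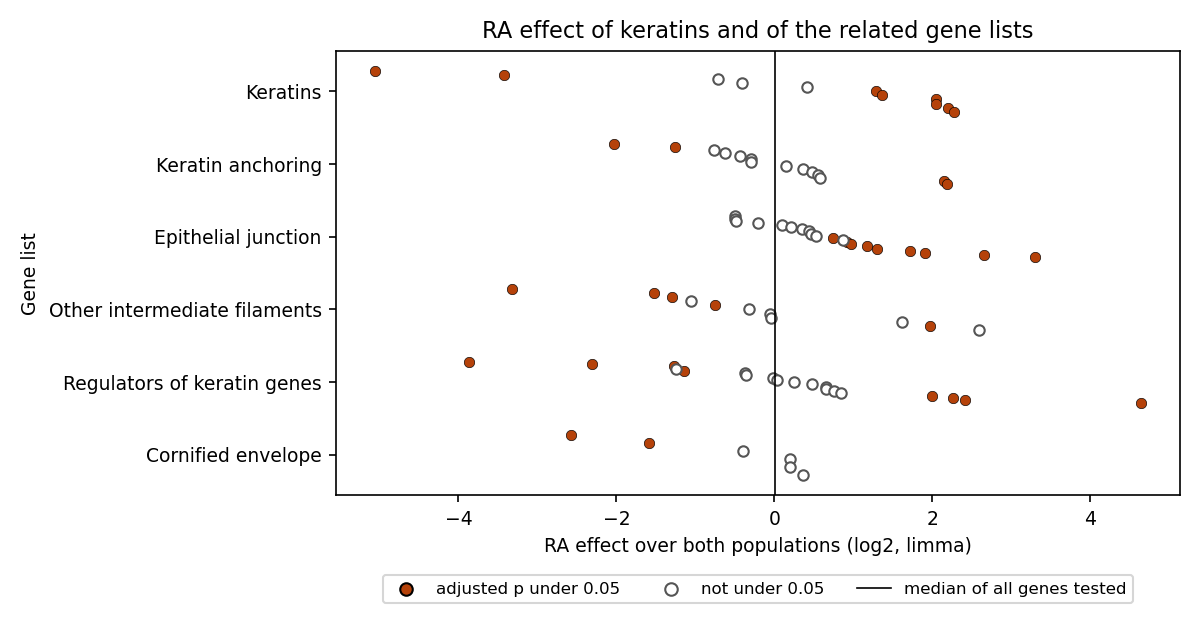
RA effect over both populations by limma (x axis, log2) for the keratins and 5 related gene lists (y axis), 1 point per gene tested; filled points had an adjusted p under 0.05 and the vertical line is the median of all genes tested (0.01). Keratins lie on both sides of the line with 6 filled points on the right and 2 on the left, and the epithelial junction genes have all 9 of their filled points on the right.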

How the data were processed

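Per the labels' protocols, biotin-labelled cRNA from total RNA was hybridised to Illumina bead arrays, 1 per group. The deposited intensity is the average bead signal without normalization, and a detection p-value accompanies each, per the file headers. The deposited ratio is the intensity over the median of its array, which the authors call median normalization. Scanner software and background subtraction are not given in the sources used here. The intensities matched between both deposited tables for all 25697 probes (relative tolerance 1e-05).

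Background was corrected and arrays were quantile-normalised with limma 3.58.1 in R 4.3.3 (neqc, negative controls inferred from the detection p-values, offset 16, log2). Symbols were updated through RefSeq (23876 probes, 92.9%, by accession; of the 41 keratin probes 36 by accession, 2 by symbol, 2 by synonym and 1 not at all). A gene was read from its brightest probe. Pairwise differences used a size rule of 2-fold. The limma model had RA and shRNA as terms and was fitted to 9875 genes with Benjamini-Hochberg adjustment. Its 1 residual degree of freedom holds noise and interaction together. A gene detected in 1 state only passed the filter through the arrays where it is high, so its limma p-value for RA adds no separate support. Signals given are not normalised; differences are. Tables used Python 3.11.15. The fit was run on simulated data with RA changes and no interaction, a simpler setting than these data, and no result here rests on it. Depth has no meaning for arrays, and their number limits precision. Members, lists and motifs were chosen with earlier results of these data known. Every detected keratin is named. Of each list, up to 4 genes called by limma for RA in each direction are named. Cdh1, Vim, Tfap2a, Tfap2c, Pkp2, Pkp3, Dsg2, Plec, Dst, Lamb1 and undetected members were added after their values were seen.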

Additional observations from a re-analysis of the deposited data

Results flagged for a closer look

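The RA effect on Krt23 had opposite directions in the 2 populations, with a log2 difference of -0.72 in scramble cells and 1.56 in knockdown cells. Both were smaller without background correction, at -0.45 and 1.12, and the scramble signals were dim (134 before and 116 after RA). The difference between the 2 RA effects was not tested, since each group has 1 array. Among the 11 detected keratins of the probe rule, the other 10 had RA effects of the same sign in both populations.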

How the results depend on the processing

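The counts of keratins past 2-fold after RA were between 6 and 9 in scramble cells and between 7 and 9 in knockdown cells under the alternatives of normalisation, offset, detection threshold, probe choice and bounds, against 8 in each. Those called by limma for RA were 8 or 9, and 0 were called for the knockdown under any alternative. After RA, 1 keratin was past 2-fold between knockdown and scramble cells, and 2 without bounds (Krt17 in addition). At a log2 difference of 0.5, added after seeing the data, 5 keratins were past it between knockdown and scramble cells before RA and 4 after RA. Without background correction Krt7, Krt19 and Krt23 were no longer past it before RA, nor Krt15 after RA. Of 17 single differences past 2-fold, 3 fell below it under at least 1 alternative (Krt15 and Krt20 in scramble and Krt20 in knockdown cells) and 0 reversed. Krt15 had an adjusted p of 0.0514 in limma without the filter on undetected genes, the 1 RA call on a keratin that was lost. No member of the other lists called by limma turned direction under the alternatives run, but calls were lost. In the lists that are not cell type markers, those on Cdh3, Cldn4, Esrp2, Nes, Des and Zeb2 were lost without the filter on undetected genes. Those on Ppl and Cdh3 were lost with mean probes, that on Des with the deposited ratios and that on Esrp2 without background correction. Marker lists other than those of pluripotency and keratinocytes also lost calls. Examples are Eomes, Ctsj, Upk3b, Dbx1 and Map2 without the filter, and Sox7, Hnf4a and Lamb1 without background correction. Without background correction the limma RA effect was -3.74 for Krt42, -2.43 for Krt17 and 0.73 for Krt15; with the deposited ratios the 2-fold comparisons gave -3.38 and -3.41 for Krt42 and -2.44 and -1.78 for Krt17. No paired analysis was possible because each group has 1 array, so that no replicate number links arrays; limma's shRNA term already compares RA within each population. For all genes, knockdown in undifferentiated cells gave 6 higher and 11 lower past 2-fold, 3 and 3 without background correction and 21 and 25 without bounds; after RA it gave 298 and 305, and 153 and 170 without background correction. Genes lower after RA numbered 1118 in scramble and 935 in knockdown cells, 694 and 470 with the deposited median-normalised ratios, and 621 in knockdown cells without background correction. Dim keratins near the negative controls (Krt14, Krt15, Krt20, Krt19 before RA, Krt17 after RA and Krt23 outside the RA-treated knockdown array) are limited by signal over background.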

Other observations

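The array holds probes of 15 other keratin genes whose deposited symbols are not of the Krt form, and 2 of these genes, Krt12 and Krt75, were detected on at least 1 array. Krt12, known as a keratin of the corneal epithelium, had a signal of 96.5 and 89.1 in undifferentiated scramble and knockdown cells, and of 83.1 (not detected) and 183 after RA. In knockdown cells it was 2.25-fold higher after RA than before, while in scramble cells it was no longer detected after RA. As for Krt23, the RA-treated knockdown array had the highest value. In the annotation Krt12, Krt20 and Krt23 follow each other in the chromosome 11 cluster. Krt20 between them had signals of 156 in scramble and 189 in knockdown cells after RA, a log2 difference of 0.32. Krt10, on the other side of Krt12, had 562 and 442 on the same arrays. Krt39, on the other side of Krt23, was detected on no array. Krt75 was detected on the RA-treated scramble array alone, with 92.9, by 1 of its probes.

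Col17a1 and Itgb4, genes of hemidesmosomes, and Spint1, a protease inhibitor gene of epithelia, were picked after their values were seen and also had higher signals in RA-treated knockdown than in RA-treated scramble cells. Col17a1 had 162 against 79.5 (not detected), Itgb4 445 against 255 and Spint1 369 against 180. In undifferentiated cells they had 136 against 115, 361 against 287 and 164 against 143 in the same order. None of them passed limma's test of the knockdown effect after adjustment. On the anchoring list with Col17a1 and Itgb4, Itga6 differed by 0.26 on the log2 scale after RA, Plec by 0.21 and Dst by 0.26. Of the 14 genes of that list compared after RA, 1 was at least 2-fold higher in knockdown cells and 0 lower. Of the 20 epithelial junction genes, 2 were higher and 0 lower, where 3.17% of all genes were higher.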
